A study of Rattus norvegicus with 6 samples.

Results

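Transcripts of 7 genes that move calcium or make, carry and destroy vitamin D were followed in rat kidney transplants: Trpv6, Trpv5, Calb1, Cyp27b1, Cyp24a1, Gc and Rgn. They were chosen by name with the results of this comparison known, and their probes were found through the platform's probe annotation. Each had 1 named probe among the 26857 on the array, and all 7 probes were bright enough on average to be tested. The study compared 3 tolerated allogeneic grafts with 3 syngeneic grafts, 1 array each. Tolerated grafts were LEW.1W kidneys (MHC haplotype RT1u), taken from donors 8 to 12 weeks old, in LEW.1A recipients (RT1a) treated with antibodies against the donor's class II molecules. Syngeneic grafts were LEW.1A kidneys in LEW.1A recipients, and the strains differ at the MHC on a common genetic background. All grafts were harvested on day 100, and in the life-sustaining allogeneic transplants both native kidneys were removed on day 7. Whether this was also done in syngeneic recipients is not stated in the labels. Donor haplotype, MHC mismatch, antibody treatment and possibly nephrectomy all differed at once, and their effects cannot be told apart. Whether each graft of a group is a separate animal is not stated, so tests measure the spread between these samples.

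Calcium that has passed the glomerulus is mostly taken back between the cells of the proximal tubule and thick limb. The last portion is taken back through the cells of the distal convoluted and connecting tubule, where Trpv5 and Trpv6 channels admit it, calbindins carry it across the cell, and pumps and exchangers release it to the blood side. Calcitriol, the active form of vitamin D, raises this transport. It is made by Cyp27b1 and destroyed by Cyp24a1, both present in the proximal tubule. This segment takes up the precursor of calcitriol bound to the carrier protein encoded by Gc.

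Of these 7 genes, 4 passed the threshold used for all probes (limma, Benjamini-Hochberg adjusted p under 0.05): Trpv6 was higher and Gc, Rgn and Cyp24a1 were lower in tolerated grafts. Of all 20142 probes tested, 25.2% passed (12.4% higher and 12.8% lower), and of the 4955 named genes 32.7% (15.5% higher and 17.2% lower). The genes were picked from this comparison, so their differences are given as a description, with the standard error (SE) and 95% interval of the fit and no p-value. The groups did not overlap for the same 4 genes, as for 47.3% of all tested probes and 55.7% of named genes. Nothing about these genes can be read from those counts. Levels are log2 of quantile normalized intensity, on which 1 unit is a doubling, and a probe's level is compared only with itself in other arrays. Probes with a mean level up to 7.76 had been left out as dim.

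The arrays were not equally apart. Median intensity before normalization was higher in every tolerated array (745 to 991) than in every syngeneic one (421 to 707). Arrays of a group correlated at 0.948 to 0.967, those of different groups at 0.878 to 0.945. On the first principal component syngeneic replicate 3 had a score of 33.18, closer to the tolerated arrays (-100.8 to -75.29) than replicates 1 and 2 (112.3 and 108.0). Syngeneic replicate 1 had the highest levels of transcripts known from liver. The values without each of these arrays are given where they matter.

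**Figure D1:**
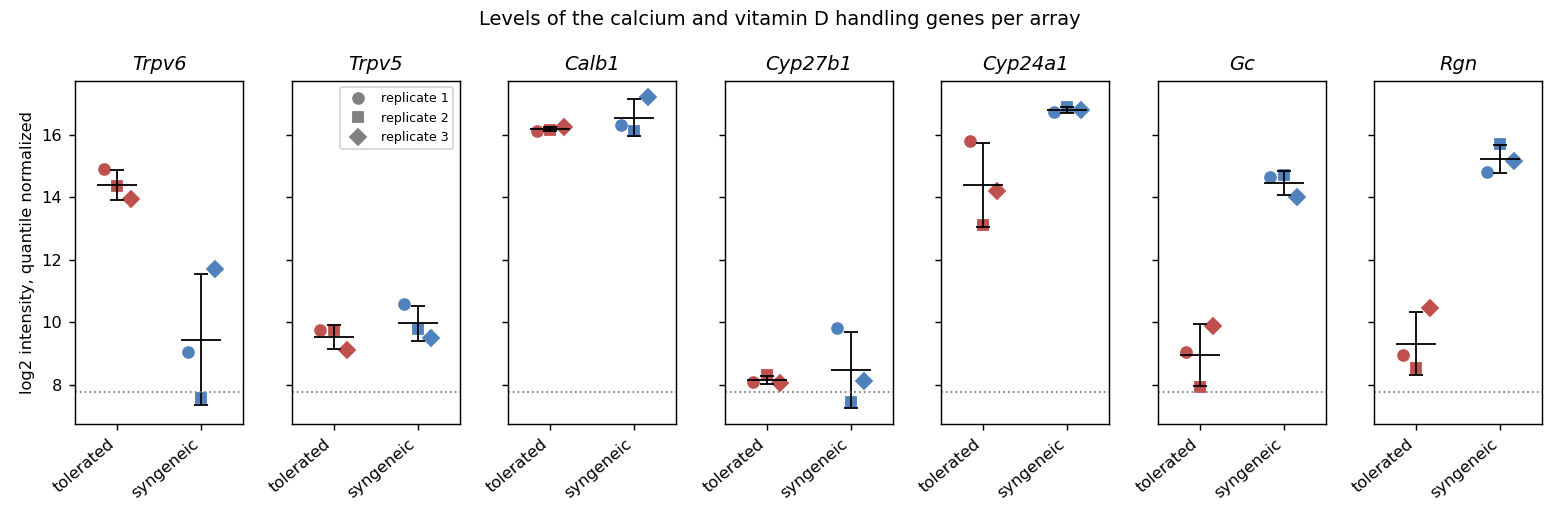
Log2 intensity (quantile normalized) of the 7 genes in each of 3 tolerated (red) and 3 syngeneic (blue) grafts. Symbols mark the replicate, horizontal bars the mean and error bars the SD, and the dotted line is the level of 7.76 up to which probes were left out. The groups are apart for Trpv6, Cyp24a1, Gc and Rgn and overlap for Trpv5, Calb1 and Cyp27b1.

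Trpv6 encodes an epithelial calcium channel best known as the entry path for calcium in the intestine and also made in distal kidney tubules. Its level (probe 21856854) was 14.90, 14.34 and 13.95 in tolerated replicates 1 to 3, and 9.05, 7.58 and 11.71 in syngeneic replicates 1 to 3. All 3 tolerated grafts lay above every syngeneic graft, and the syngeneic grafts were spread over 4.13 log2 units, replicate 2 being under the limit for dim probes and replicate 3 the highest. The deposited intensities, before any normalization, were 33536, 18522 and 23200 in tolerated and 339, 193 and 3807 in syngeneic grafts. The mean was 30.9-fold higher in tolerated grafts (log2 fold change 4.95 ± 1.03, SE, 95% interval 2.41 to 7.49), and 36 of the 20142 probes had an increase at least as large, itself included. The size depended on the syngeneic arrays: it was 16.2-fold without replicate 2 and 67.8-fold without replicate 3, and Trpv6 passed the threshold only in the latter of the 6 fits with 1 array left out.

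Trpv5 encodes the sister channel, the main apical calcium entry of the distal convoluted and connecting tubule. Its probe (20769285) had levels of 9.75, 9.75 and 9.10 in tolerated grafts and 10.59, 9.79 and 9.50 in syngeneic grafts. These ranges overlapped, with a log2 fold change of -0.43 ± 0.35 (95% interval -1.29 to 0.43). The interval of Trpv6 was 2.41 to 7.49, and the difference between the changes of the 2 genes was not tested. In the RefSeq gene table of assembly GRCr8, Trpv6 and Trpv5 are neighbours on chromosome 4, with 0 other genes starting between them. Since Trpv6 passed the threshold with all arrays and its neighbour did not, their promoter windows are shown. Each window runs from 250 bases before to 50 bases after the start of the gene. That of Trpv6 is at chr4:71489618-71489917 and that of Trpv5 at chr4:71529333-71529632 (RefSeq, GRCr8, minus strand, written 5′ to 3′ along the gene).
Trpv6: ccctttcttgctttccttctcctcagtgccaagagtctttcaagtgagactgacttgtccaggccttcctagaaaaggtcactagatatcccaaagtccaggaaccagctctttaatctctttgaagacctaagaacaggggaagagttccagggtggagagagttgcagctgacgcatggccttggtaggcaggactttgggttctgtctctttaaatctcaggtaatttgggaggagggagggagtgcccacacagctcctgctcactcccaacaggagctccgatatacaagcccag
Trpv5: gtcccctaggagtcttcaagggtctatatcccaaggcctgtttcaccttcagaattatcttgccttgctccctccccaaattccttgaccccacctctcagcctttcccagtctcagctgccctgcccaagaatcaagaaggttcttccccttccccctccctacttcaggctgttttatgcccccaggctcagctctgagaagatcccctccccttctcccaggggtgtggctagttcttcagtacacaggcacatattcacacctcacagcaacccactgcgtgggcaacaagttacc
Both were searched on both strands for direct repeats, 3 bases apart, of the hexamer that the vitamin D receptor binds (AGGTCA, also with G at the first, T at the third or G at the fifth place). Such repeats were in neither window, and 0.35% of all 33469 promoter windows held such a repeat. With a repeat this rare and only 300 bases searched per gene, its absence says nothing about receptor sites elsewhere.

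Calb1 encodes the larger calbindin, which ferries calcium through the cells of the distal convoluted and connecting tubule. Its level (probe 21936572) was 16.11, 16.15 and 16.24 in tolerated grafts and 16.29, 16.12 and 17.22 in syngeneic grafts. Apart from syngeneic replicate 3, which was about 1 unit higher, the 6 arrays lay close together. The log2 fold change was -0.37 ± 0.31 (95% interval -1.14 to 0.40), and -0.04 without syngeneic replicate 3.

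Cyp24a1, which starts the breakdown of calcitriol and of its precursor, was lower in tolerated grafts. Its level (probe 20924768) was 15.80, 13.12 and 14.21 in tolerated grafts and 16.71, 16.90 and 16.78 in syngeneic grafts. The syngeneic arrays lay within 0.18 log2 units of each other and the tolerated ones were spread over 2.67, with replicate 1 nearest to the syngeneic level. The mean was 5.36-fold lower (log2 fold change -2.42 ± 0.66, 95% interval -4.04 to -0.81). The log2 fold change was -1.80 without tolerated replicate 2 and -3.13 without tolerated replicate 1, and the threshold was passed only in the latter of the 6 fits. With no filter on dim probes it was missed as well.

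Cyp27b1 makes calcitriol, in the proximal tubule and, in humans, in activated macrophages. Its probe (21344632) was dim: 8.08, 8.31 and 8.07 in tolerated grafts and 9.81, 7.45 and 8.13 in syngeneic grafts. The tolerated arrays agreed closely, while syngeneic replicate 1 was the highest and replicate 2 the lowest of all 6. The log2 fold change was -0.31 ± 0.60 (95% interval -1.78 to 1.16), and it turned to 0.36 without syngeneic replicate 1, so no direction can be given.

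Gc encodes the vitamin D binding protein, which the liver secretes and which carries vitamin D metabolites in blood. Its level (probe 22338890) was 9.04, 7.93 and 9.89 in tolerated grafts and 14.63, 14.71 and 14.02 in syngeneic grafts. Every tolerated graft lay at least 4.13 log2 units below every syngeneic one. The mean was 45.2-fold lower, with a log2 fold change of -5.50 ± 0.52 (95% interval -6.77 to -4.23). With any 1 array left out the log2 fold change stayed between -5.97 and -4.99 and past the threshold in all 6 fits.

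Rgn encodes regucalcin, a calcium-binding protein abundant in liver and kidney cortex. Its level (probe 21279172) was 8.94, 8.54 and 10.44 in tolerated grafts and 14.81, 15.71 and 15.16 in syngeneic grafts. The gap between the groups was 4.37 log2 units, and tolerated replicate 3 was the highest of its group, as it was for Gc. The mean was 60.5-fold lower, with a log2 fold change of -5.92 ± 0.54 (95% interval -7.25 to -4.59), and 4 of all tested probes, Rgn among them, had a decrease at least as large. With 1 array left out the log2 fold change ran from -6.49 to -5.53, past the threshold in all 6 fits.

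Gc and Rgn moved together across the arrays. Once each gene's levels were centred on its own mean, they differed by 0.43 log2 units (root mean square over 6 arrays), the smallest value among pairs of the 7 genes, and Trpv6 and Rgn by 5.66, the largest. The promoter windows of this pair are shown for that reason, for Gc at chr14:18916005-18916304 (plus strand) and for Rgn at chrX:4187908-4188207 (minus strand), from RefSeq, GRCr8. Capitals mark a match to the consensus of HNF1, a transcription factor of liver and proximal tubule.
Gc: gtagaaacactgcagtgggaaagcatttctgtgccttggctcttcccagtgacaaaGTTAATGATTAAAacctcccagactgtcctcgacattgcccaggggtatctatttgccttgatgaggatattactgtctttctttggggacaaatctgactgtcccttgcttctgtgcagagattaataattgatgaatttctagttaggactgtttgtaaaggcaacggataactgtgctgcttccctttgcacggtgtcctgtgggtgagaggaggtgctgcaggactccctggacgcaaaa
Rgn: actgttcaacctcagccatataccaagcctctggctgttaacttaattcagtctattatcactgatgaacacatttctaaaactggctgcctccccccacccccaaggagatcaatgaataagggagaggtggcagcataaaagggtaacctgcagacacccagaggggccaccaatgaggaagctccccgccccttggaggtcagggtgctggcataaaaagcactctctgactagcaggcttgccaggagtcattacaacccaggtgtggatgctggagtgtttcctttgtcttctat
The HNF1 consensus, with at most 1 mismatch and on both strands, was met by GTTAATGATTAAA in the Gc window, from -194 to -182 relative to the start. The consensus is palindromic, so this match counts on both strands. It was not met in the Rgn window, and 0.14% of all 33469 windows held a match. The vitamin D receptor repeat was in neither window. Promoter windows were found for 5 of the 7 genes, and among them the Gc window alone held either motif. A match is a description of the letters and not evidence of binding, and the lack of a match is not evidence against binding.

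Over the 4948 other named genes tested, those with levels most like a chosen gene were found by the same root mean square difference. For Trpv6 they were Fcgr2b, an IgG receptor gene (0.36), and Lcn2, a lipocalin of injured tubules (0.39). For Gc they were the retinol dehydrogenase gene Rdh16 (0.24) and Nat8f1 (0.35), and for Rgn again Rdh16 (0.37) and the histamine methyltransferase gene Hnmt (0.48). For Cyp24a1 they were Slc7a9, a proximal tubule amino acid transporter gene (0.32), and Cubn, the cubilin gene (0.36). For Cyp27b1 they were Hamp, the hepcidin gene (0.12), and Sult2a6 (0.25), both known from liver and both highest in syngeneic replicate 1. For Trpv5 they were Ctrb1 (0.14) and Myo9a (0.17), and for Calb1 Ube2v2 and Ackr3 (0.16 each). With 6 arrays in separate groups such likeness is a description only.

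**Figure D2:**
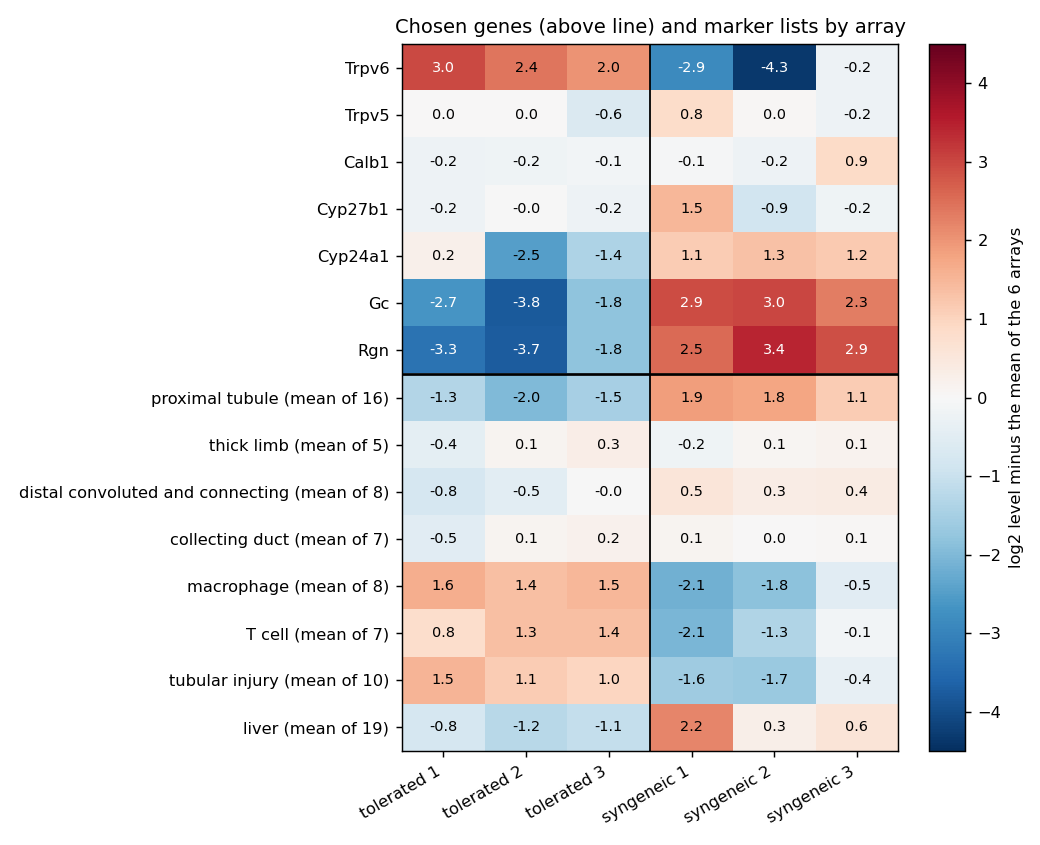
Log2 level of each gene minus its mean over the 6 arrays (above the line) and the mean of the same measure over marker lists (below), by array. Trpv6, macrophage, T cell and tubular injury genes are high in tolerated grafts with syngeneic replicate 3 between. Gc and Rgn are low in tolerated grafts with proximal tubule genes, and the liver list stands out in syngeneic replicate 1.

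Marker lists of kidney segments and of other cells were set beside these genes, and some changed while others changed little. Of 16 proximal tubule genes tested, 14 fell and 0 rose, and the median change was -3.03 (log2), against -0.02 over all tested probes. Pck1, Fbp1 and Slc22a2 led them (-5.42, -4.87 and -4.79). In the later segments few markers passed: 0 of 5 in the thick limb (median 0.16), 2 of 8 in the distal convoluted and connecting tubule, both lower (median -0.44), and 1 of 7 in the collecting duct, lower (median 0.00). In the thick limb Bsnd, with the smallest p, had -0.81 (adjusted p = 0.0533). Slc12a3, the sodium chloride transporter that defines the distal convoluted tubule, had -0.50 ± 0.23 (adjusted p = 0.171) and Pvalb 0.26 ± 0.39, which turned to -0.10 without syngeneic replicate 3. The fallen distal markers were Egf (-3.32) and the potassium channel gene Kcnj16 (-1.69), and the collecting duct marker was Slc26a4 (-1.64), which missed the threshold without any 1 of the tolerated arrays (adjusted p up to 0.0681). In RNA of whole tissue, fewer cells of a type and less RNA per cell cannot be told apart, and the part that proximal tubule RNA has in the levels of Gc, Rgn and Cyp24a1 was not tested.

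All 8 macrophage markers tested rose (median 2.99), led by Fcgr3a, C1qc and C1qa, as did 8 of 10 tubular injury genes (median 2.69), led by Lcn2, Havcr1 and Timp1, and 5 of 7 T cell genes (median 2.46), led by Cd2, Cd8b and Zap70. With 1 array left out the risen genes numbered 4 to 8, 3 to 9 and 0 to 5 in these lists. The T cell count was 0 without any 1 of the tolerated arrays or syngeneic replicate 1, and 1 without syngeneic replicate 2. The injury count was lowest, at 3, without syngeneic replicate 2, and the macrophage count was 4 without tolerated replicate 1 or 3. The mean centred level of the macrophage list was 1.36 to 1.62 in tolerated grafts and -2.15, -1.85 and -0.50 in syngeneic replicates 1 to 3. That of the injury list was 0.98 to 1.52 in tolerated grafts and -1.62, -1.65 and -0.35 in the syngeneic ones. Trpv6 had the same placing of syngeneic replicate 3. So had the T cell list (-2.06, -1.34 and -0.11 in syngeneic replicates 1 to 3). On the first principal component of all probes this array was also the syngeneic one nearest to the tolerated arrays. The placing is therefore not particular to Trpv6 and these lists. The part of macrophages, T cells and injury in the level of Trpv6 was not tested. The single B cell marker tested, Cd79b, had 3.82 ± 1.36 (adjusted p = 0.0927), but 5.33 and a pass once syngeneic replicate 3 was dropped (adjusted p = 0.00778). In syngeneic replicates 1 and 2 it was at 7.19 and 7.05, under the limit for dim probes, which limits the size of this rise. Of 5 podocyte genes 1 fell (Podxl, -0.94, adjusted p = 0.0388, passing only without syngeneic replicate 3 among the fits with 1 array left out), and 0 of 3 endothelial genes passed, where Flt1 was at -0.94 (adjusted p = 0.0702), or -1.15 with syngeneic replicate 3 dropped, a pass (adjusted p = 0.0446).

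Of 19 transcripts known from liver, 6 fell and 0 rose, with a median of -1.81, led by Alb, Ttr and Apoc3 (-8.23, -3.95 and -3.87). Alb had -7.03 without syngeneic replicate 1 and -9.20 without syngeneic replicate 2, and Ttr had -3.15 without syngeneic replicate 1 and missed the threshold without tolerated replicate 2 or 3 (adjusted p up to 0.0701). Alb itself was at 6.55 to 7.70 in tolerated grafts, under the limit for dim probes. The list's mean centred level was 2.21 in syngeneic replicate 1 against 0.26 and 0.60 in replicates 2 and 3. Gc and Rgn did not have this order. Gc was 0.27 log2 units higher and Rgn 0.62 lower in syngeneic replicate 1 than in the mean of replicates 2 and 3, whereas Cyp27b1 was 2.02 higher. Without syngeneic replicate 1 the log2 fold changes of Gc and Rgn were -5.41 and -6.13.

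The wider pathway was described with lists of other genes, 128 in all, of which 82 could be tested. Of these 22 rose and 15 fell, or 45.1%, against 32.7% of the 4955 named genes tested, and their median log2 fold change was 0.06. The share among named genes, 15.5% higher and 17.2% lower, also stands beside each list below. The lists were chosen with earlier results of these data known, so the higher share cannot be read as a result about the pathway. The count of fallen genes was 11 to 16 with 1 array left out, while that of risen genes was 22 without syngeneic replicate 3, 11 without syngeneic replicate 1, 5 without any 1 of the tolerated arrays, and 3 without syngeneic replicate 2. Of 27 pathway genes named by rule that passed with all arrays, 10 passed in all 6 such fits, 9 of them lower and 1, Irf1, higher. Calls over all probes had the same unevenness, so it is not particular to this pathway. With any 1 array but syngeneic replicate 3 left out, 649 to 969 probes were higher and 1038 to 1315 lower, against 2490 and 2585 with all arrays.

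**Figure D3:**
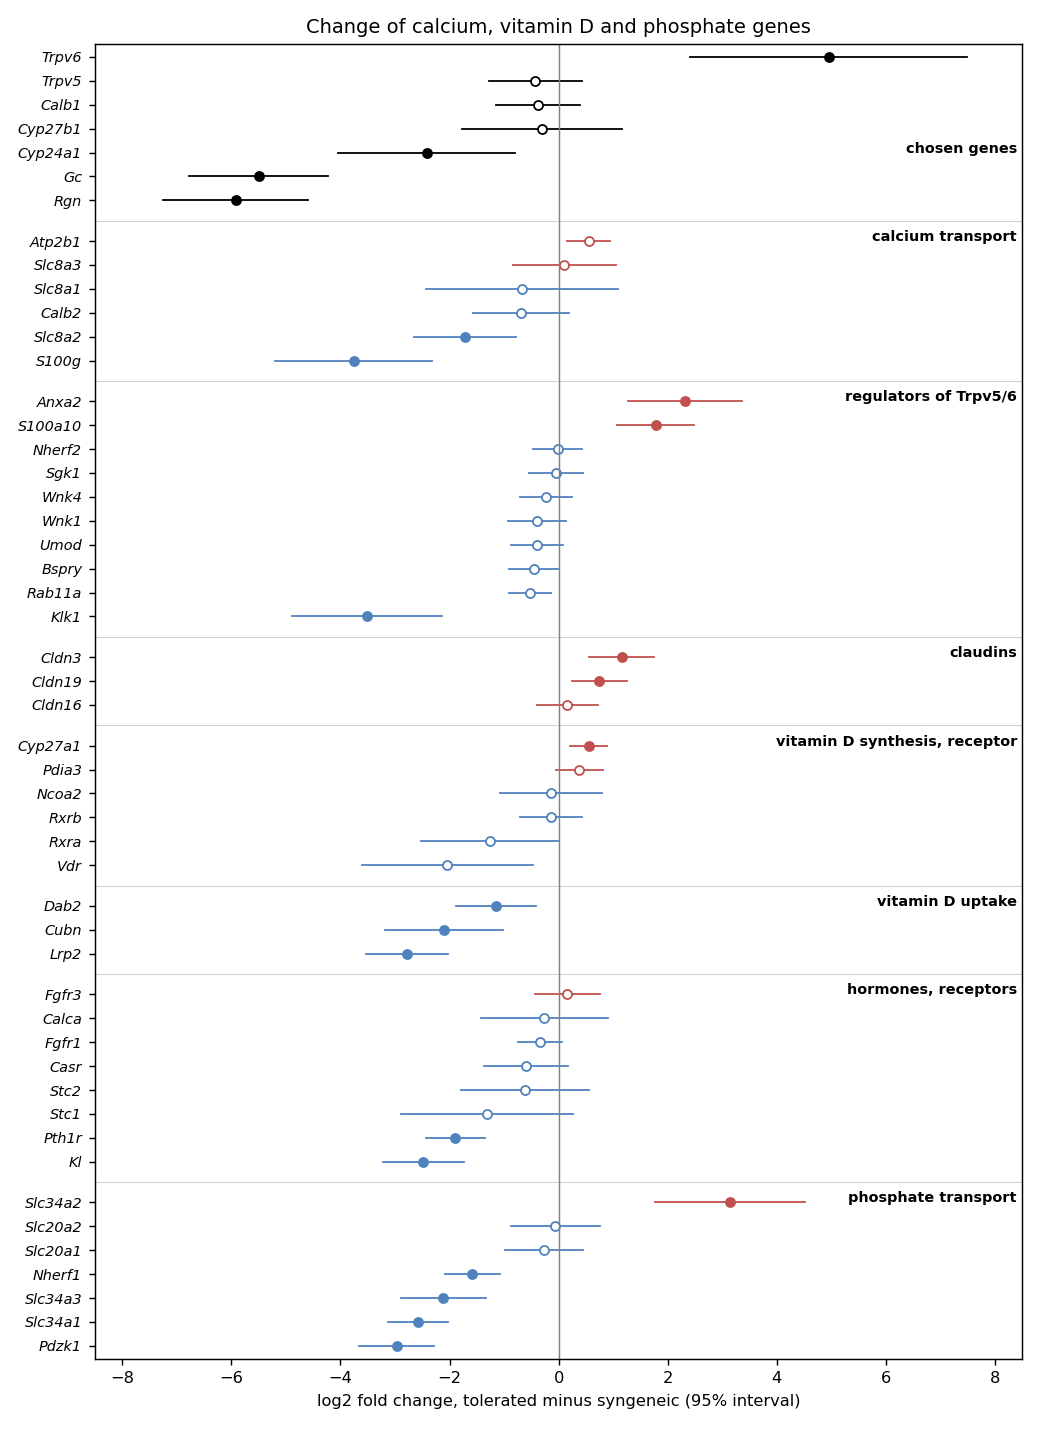
Log2 fold change, tolerated minus syngeneic, with 95% intervals, of the 7 chosen genes (black) and of the tested genes of 7 pathway lists (red above 0, blue below 0). Filled points passed an adjusted p of 0.05 over all 20142 probes. Genes of vitamin D uptake lie wholly below 0, and Trpv6 and Slc34a2 have the highest changes shown.

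Of 6 other genes of calcium transport through the cell 2 fell and 0 rose, with a median of -0.68. Among all named genes 32.7% passed in either direction and 17.2% were lower. With so few genes the list as a whole cannot be said to stand out. S100g, the smaller calbindin, had levels of 10.94, 8.91 and 9.76 in tolerated and 14.25, 13.62 and 13.003 in syngeneic grafts, without overlap. It fell 13.5-fold (log2 fold change -3.76 ± 0.58, limma adjusted p = 0.0115) and passed in all 6 fits with 1 array left out. Beside it stands the larger calbindin, Calb1, at -0.37 ± 0.31, and the difference between these changes was not tested. Atp2b1, the calcium pump of the basolateral membrane, had levels of 16.33, 16.50 and 16.15 against 15.80, 15.79 and 15.75, and did not pass (0.55 ± 0.16, adjusted p = 0.0534). It passed in 3 of 15 alternative fits, 0 of them with 1 array left out, and its change was 0.13 under median scaling. Slc8a1, the sodium calcium exchanger of the distal tubule, was dim and overlapped (-0.68 ± 0.72, adjusted p = 0.528), with -0.10 without syngeneic replicate 1 and -1.44 without replicate 2. The exchanger gene Slc8a2, best known from brain, fell (-1.72 ± 0.38, adjusted p = 0.0258) but the call was lost (adjusted p at most 0.0862) when tolerated replicate 1 or 3, or syngeneic replicate 1 or 2, was dropped.

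Among 10 genes that act on the Trpv5 and Trpv6 channels, 2 rose and 1 fell, with a median of -0.32. That share is near the 32.7% called in either direction among all named genes, so the list as a whole did not stand out. Anxa2 and S100a10, whose products form a complex that brings the channels to the cell surface, rose by 2.31 ± 0.42 and 1.78 ± 0.29 (adjusted p = 0.0163 and 0.0124). S100a10 missed the threshold without syngeneic replicate 2 (adjusted p = 0.0501), and Anxa2 passed only without syngeneic replicate 1 or 3. Klk1, tissue kallikrein, which activates Trpv5 in mice, fell 11.4-fold from 17.93, 17.16 and 17.42 in syngeneic to 12.85, 14.16 and 14.96 in tolerated grafts (-3.51 ± 0.56, adjusted p = 0.0122), in all 6 fits with 1 array left out. Umod, the most abundant urinary protein, which holds Trpv5 at the surface, had -0.40 ± 0.19 (adjusted p = 0.188). Of 3 claudin genes of the tight junction 2 rose: Cldn3 (1.15 ± 0.24, adjusted p = 0.0234) and Cldn19 (0.75 ± 0.20, adjusted p = 0.0464), a thick limb claudin. Both passed only without syngeneic replicate 3 among the fits with 1 array left out, and neither passed when arrays were scaled to equal medians, where 0 of the 3 did.

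Genes that bring the vitamin D precursor into proximal tubule cells fell, 3 of 3 tested, with a median of -2.10. Lrp2, or megalin, the receptor that takes up the carrier protein, had levels of 10.67, 9.65 and 10.13 in tolerated and 13.02, 13.16 and 12.62 in syngeneic grafts. It fell 6.88-fold (-2.78 ± 0.31, adjusted p = 0.00561), in all 6 fits with 1 array left out. Cubn, or cubilin, its partner, fell by 2.10 on the log2 scale (SE 0.44, adjusted p = 0.0224) and Dab2, the adaptor of megalin, by 1.15 (SE 0.30, adjusted p = 0.0388). Cubn lost its call (adjusted p at most 0.0758) when tolerated replicate 2 or 3, or syngeneic replicate 1 or 2, was dropped, and Dab2 passed only without syngeneic replicate 3. Cubn had its lowest level in tolerated replicate 2 and its highest tolerated level in replicate 1 (14.69, 13.01 and 13.61), the order that Cyp24a1 had. Beside this list stand the proximal tubule markers, 14 of 16 lower with a median of -3.03, and their part in the fall of Lrp2, Cubn and Dab2 was not tested.

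Of 6 genes of vitamin D metabolism and its receptor 1 rose and 0 fell, with a median of -0.14. Among all named genes 15.5% were higher and 17.2% lower. Cyp27a1, a mitochondrial hydroxylase of sterols and vitamin D, rose (0.55 ± 0.14, adjusted p = 0.0354), passing only without syngeneic replicate 3 with 1 array left out and not passing after median scaling. Vdr, the vitamin D receptor, was at 8.11, 8.13 and 8.15 in tolerated grafts and at 10.95, 10.91 and 8.66 in syngeneic grafts. The tolerated arrays were nearly equal and all lower, with syngeneic replicate 3 close to them, and the difference did not pass (-2.04 ± 0.64, adjusted p = 0.0656). Without syngeneic replicate 3 it did (-2.80, adjusted p = 0.00194). For Cyp2r1 the annotation named no probe. Among 6 genes that calcitriol is known to induce in mammals 1 rose and 2 fell (median -0.16), namely Spp1, S100g and Kl.

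Among 8 hormones and receptors of mineral balance 2 fell and 0 rose (median -0.61). Among all named genes 32.7% passed in either direction and 17.2% were lower, which sets the list little apart. Its fallen members were Pth1r and Kl. Pth1r, the parathyroid hormone receptor, through which that hormone raises Cyp27b1 and lowers Cyp24a1, had levels of 15.37, 15.34 and 15.71 in tolerated and 17.65, 17.05 and 17.39 in syngeneic grafts. It fell 3.71-fold (-1.89 ± 0.22, adjusted p = 0.00599). Kl, or klotho, the coreceptor through which FGF23 raises Cyp24a1 and lowers Cyp27b1, was at 10.48, 10.91 and 11.36 against 13.62, 13.58 and 12.99. It fell 5.58-fold (-2.48 ± 0.30, adjusted p = 0.00652). Both passed in all 6 fits with 1 array left out. The part that proximal tubule RNA has in the falls of Pth1r and Kl was not tested. Casr, the calcium-sensing receptor of the thick limb, had -0.60 ± 0.31 (adjusted p = 0.210).

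Phosphate transport, which the same hormones govern, had 4 of 7 tested genes lower and 1 higher (median -1.58). The shares among all named genes were 17.2% lower and 15.5% higher. Slc34a1, the main phosphate transporter of the proximal tubule, fell 5.96-fold, from 20.67, 20.56 and 20.56 to 17.82, 17.81 and 18.44 (adjusted p = 0.00406), and its scaffold gene Pdzk1 fell 7.84-fold (adjusted p = 0.00421). Slc34a2, the transporter of intestine and lung, rose, from 14.38, 14.67 and 16.40 to 18.55, 18.40 and 17.92 (3.14 ± 0.56, adjusted p = 0.0152). Its log2 fold change was 3.77 without syngeneic replicate 3, and it lost its call (adjusted p at most 0.0569) when tolerated replicate 1 or 2, or syngeneic replicate 2, was dropped. Slc34a1 and Pdzk1 passed in all 6 such fits. Beside the fallen phosphate genes stand the proximal tubule markers, 14 of 16 lower with a median of -3.03. The part of proximal tubule RNA in these falls was not tested.

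Signals that raise Cyp27b1 in human or mouse macrophages were higher, 5 of 6 genes rising (median 1.65; 2 to 5 with 1 array left out, fewest without tolerated replicate 3 or syngeneic replicate 2), beside the dim and overlapping levels of Cyp27b1 itself. Irf1, a transcription factor of interferon gamma, rose 6.53-fold (2.71 ± 0.40, adjusted p = 0.0103), in all 6 fits with 1 array left out. Ifng, the interferon gamma gene, rose by 1.93 ± 0.41 (adjusted p = 0.0242), from 7.98, 7.63 and 6.61 to 9.51, 8.87 and 9.62. In syngeneic replicates 2 and 3 it was under the limit for dim probes, which limits the size of this rise. Tlr2, a receptor for bacterial lipoproteins, rose by 1.53 ± 0.31 (adjusted p = 0.0215). Ifng passed only without syngeneic replicate 1 or 3 and Tlr2 only without syngeneic replicate 3. Among syngeneic grafts Irf1 and Tlr2 were highest in replicate 3, as the macrophage list given above was, while Ifng was lowest there. The part of macrophage and T cell number in these rises was not tested.

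**Figure D4:**
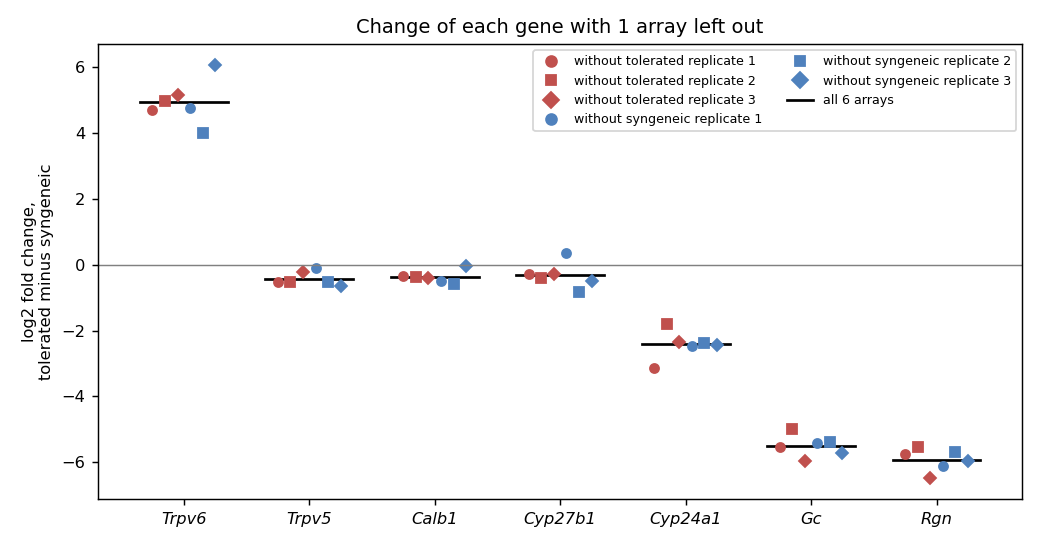
Log2 fold change, tolerated minus syngeneic, of the 7 chosen genes with all 6 arrays (black line) and with each array left out in turn (points). Gc and Rgn keep their place, Trpv6 ranges from 4.02 to 6.08 with the syngeneic array left out, Cyp24a1 from -3.13 to -1.80 with the tolerated one, and Cyp27b1 crosses 0.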

How the data were processed

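Per the labels' protocols, 0.5 µg of RNA from each of 6 rat kidney transplants was amplified with digoxigenin and read by chemiluminescence on Applied Biosystems arrays of 60-base probes. The authors deposited raw probe intensity, with no normalization seen between arrays. The authors also deposited log2 values, all columns with a median of 9.36 and ranked as the raw columns (rank correlation 1), used here as an alternative. How they were made, and any background correction or flag, is not given in the labels used here. Values of other samples were not present (0 columns).

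Intensities were taken to log2 (floor of 1), quantile normalized, and probes kept if their mean over 6 arrays exceeded the lower quartile, 7.76 (20142 kept, 6715 left out). The test was limma's (version 3.58.1, R 4.3.3; lmFit and eBayes, two-sided), adjusted over all tested probes, and the fit was tested on simulated data. Of the probes, 6104 had 1 symbol, 70 several and 20683 none listed. Symbols were updated by Entrez identifier to GRCr8 (6081 matched), and the brightest probe stood for a gene. The number of arrays limits the precision.

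The genes and lists were chosen with earlier results of these data known. Genes named were the 7 chosen, up to 3 called genes of each list by size (or the smallest p), 17 fixed genes, and 2 nearest patterns each. Alternatives were median scaling, cyclic loess, the deposited log2 values, no or a stricter filter, an offset of 50, an intensity trend, gene means, a replicate block, and each array left out. Promoter windows came from RefSeq.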

Additional observations from a re-analysis of the deposited data

How the results depend on the processing

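All 7 chosen genes kept their direction under every alternative run, except Cyp27b1, which ran from -0.82 to 0.36 with 1 array left out (0.36 without syngeneic replicate 1) and was left out by the stricter filter. Among other named genes Pvalb ran from -0.10, without syngeneic replicate 3, to 0.63. With fewer arrays in the fit, 1 being left out, the probes that differed numbered 1717 to 6040 against 5075. Of these 649 to 3046 were higher, against 2490, and 1038 to 2994 lower, against 2585. The chosen genes past the threshold numbered 2 to 3 against 4. The risen pathway genes numbered 3 to 22 against 22, while the fallen ones numbered 11 to 16 against 15. Median scaling called 14 risen pathway genes, and 37.5% of all called probes were higher (1735 higher, 2886 lower) against 49.1% (2490 and 2585). The median over all probes became -0.15 instead of -0.02, so the smaller rises are open to the choice of scaling. Replicate numbers are shared by the groups in name only: deviations of same-numbered arrays correlated at -0.00, 0.01 and 0.05. With the replicate block 1886 probes, 2 chosen genes and 3 risen pathway genes passed. The calls of Trpv6 and Cyp24a1 were those lost under this block, and with no filter 3 chosen genes passed. Signal over background was not measured, so dim levels limit the size of a fold. Such levels included those of Cyp27b1 and Slc8a1, of Gc, Rgn, Alb, Vdr and Slc8a2 in tolerated grafts, and of Ifng in syngeneic grafts. They also included Ttr in tolerated replicate 2, Trpv6 in syngeneic replicate 2, Zap70 in syngeneic replicate 1, and Cd79b in syngeneic replicates 1 and 2.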

Other observations

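Of 17 S100 and annexin genes tested 9 rose and 1 fell, with a median log2 fold change of 1.10. Among all named genes 15.5% were higher and 17.2% lower, and this list was chosen with earlier results known. The risen genes include Anxa2 and S100a10, described above with the Trpv channels. The list's mean centred level was 0.56 to 0.68 in tolerated grafts and -0.84, -0.88 and -0.10 in syngeneic replicates 1 to 3, so that replicate 3 was placed as in the macrophage list (1.36 to 1.62 against -2.15, -1.85 and -0.50) and in the tubular injury list (0.98 to 1.52 against -1.62, -1.65 and -0.35). The T cell list had this placing too. The part of those cells and of injury in these rises was not tested. S100a4 and S100a6, small calcium-binding proteins of motile and proliferating cells, rose by 2.74 ± 0.55 and 2.26 ± 0.44 (limma adjusted p = 0.0210 and 0.0194), from 13.61, 13.90 and 15.68 to 17.04, 17.33 and 17.04 for S100a4. Both passed only without syngeneic replicate 3 among the fits with 1 array left out (S100a4 3.38), and the list had 1 risen gene without syngeneic replicate 2, 2 without any 1 of the tolerated arrays and 6 without syngeneic replicate 1. S100a1, known from muscle and kidney, was the member that fell (-1.04, adjusted p = 0.0300, named after its value was seen). Of 9 genes of intracellular calcium stores 3 rose and 0 fell (median 0.24). Among all named genes 32.7% passed in either direction and 15.5% were higher, and so few genes do not set the list apart. Its risen genes were Itpr3, a calcium release channel (1.31 ± 0.32, adjusted p = 0.0340), Calu (0.95 ± 0.21, adjusted p = 0.0256) and Rcn2 (0.62 ± 0.15, adjusted p = 0.0343), the latter pair encoding binding proteins of the secretory pathway. All 3 passed only without syngeneic replicate 3 when 1 array was left out, and 0 genes of the list rose under median scaling.

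Among 7 genes that promote or hold back mineral deposits 2 fell and 1 rose (median -0.40). The shares among all named genes were 17.2% lower and 15.5% higher. Alpl, the phosphatase that removes the inhibitor pyrophosphate, was at 11.09, 11.10 and 11.23 in tolerated and 15.18, 15.06 and 14.60 in syngeneic grafts, a 14.0-fold fall (-3.80 ± 0.20, adjusted p = 0.00363). Enpp1, which makes pyrophosphate, fell 2.52-fold (-1.34 ± 0.15, adjusted p = 0.00589). Both passed with any 1 array left out. The part that proximal tubule RNA has in the falls of Alpl and Enpp1 was not tested. Spp1, or osteopontin, which binds to crystals and is also made by injured tubules and macrophages, rose 7.30-fold (adjusted p = 0.0354), to 21.04, 20.69 and 21.04 from 16.95, 17.52 and 19.71, and passed only without syngeneic replicate 3 (log2 fold change 3.69, against 2.87 with all arrays). Spp1 was the probe of rank 2 from the brightest on tolerated replicates 1 and 3, which is why its level is the same there. The highest level on the scale is 21.25, and its intensities differed (2274552 and 2473505).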
